A study of Mus musculus with 6 samples.

Results

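The genes of glycolysis, of lactate and glucose transport and of pyruvate entry into mitochondria were followed in the retina of mice with and without endomucin (Emcn), a sialomucin of the endothelial surface coat. They were taken from the deposited table by gene symbol, from a list of 39 symbols, which matched 40 of its 28627 gene records because Aldoa is carried by 2 records. Poly-A RNA had been sequenced from the retinas of littermate pups, as 3 Emcn+/+ and 3 Emcn-/- samples, all at postnatal day 15 and all under oxygen-induced retinopathy. In that model pups spend time in high oxygen, which thins the retinal capillary bed, and then return to room air, where the poorly supplied retina is short of oxygen and sprouts vessels. Both genotypes went through the model, so no retina without it was compared, and the labels give neither the strain nor how the Emcn allele was made. The labels do not say that each sample came from its own animal, and p-values therefore measure the spread between these samples.

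Glycolysis splits glucose into pyruvate, which lactate dehydrogenase turns into lactate or which the mitochondrial pyruvate carrier and the pyruvate dehydrogenase complex pass on to the tricarboxylic acid cycle. The retina is known for making lactate from glucose even when oxygen is plentiful, mostly in photoreceptors, and lactate leaves and enters cells through monocarboxylate transporters that need the chaperone basigin. The hypoxia-inducible factors (HIF) raise many of these genes when oxygen is low by binding a short core sequence near their promoters, and they raise pyruvate dehydrogenase kinase, which shuts pyruvate out of the mitochondria. Of the 39 symbols, 18 were grouped as textbook HIF-induced genes (Slc2a1, Slc2a3, Hk2, Gpi1, Pfkl, Pfkp, Aldoa, Tpi1, Gapdh, Pgk1, Pgam1, Eno1, Pkm, Ldha, Slc16a3, Pdk1, Pfkfb3 and Pfkfb4). The other 21 were taken as constitutive, cell-type-specific or otherwise controlled. The division is not clean, since photoreceptors express Hk2 and Slc2a1 as well. Promoters of Aldoc and Pdk3, in the other group, hold the core sequence too, and whether HIF raises members of that group was not tested. The other group may therefore hold HIF targets. Comparing it with the HIF-induced group does not set HIF targets against genes free of HIF.

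The core sequence can be seen in the promoters of a few members on which the results turn. The stretches below are the 150 bases before an annotated RefSeq start on GRCm38.p6, written 5′ to 3′ on the strand of the gene. Capitals mark ACGTG, the core of the hypoxia response element, and its variant GCGTG on either strand, which read CACGT and CACGC on the opposite strand. The palindrome CACGTG holds ACGTG on both strands and is counted on each. Slc2a1 and Slc16a3, which import glucose and export lactate, and Ldha are in the HIF-induced group, while Slc16a8 and Ldhb are in the other group.

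Slc2a1 at chr4:119108595-119108744, plus strand: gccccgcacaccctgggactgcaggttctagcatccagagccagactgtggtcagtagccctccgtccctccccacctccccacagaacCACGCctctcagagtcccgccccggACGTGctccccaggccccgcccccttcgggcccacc
Slc16a3 at chr11:120948917-120949066, plus strand: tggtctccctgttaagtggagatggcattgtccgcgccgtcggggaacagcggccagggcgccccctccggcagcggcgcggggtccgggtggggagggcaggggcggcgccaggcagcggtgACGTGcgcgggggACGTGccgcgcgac
Ldha, upstream start, at chr7:46845654-46845803, plus strand: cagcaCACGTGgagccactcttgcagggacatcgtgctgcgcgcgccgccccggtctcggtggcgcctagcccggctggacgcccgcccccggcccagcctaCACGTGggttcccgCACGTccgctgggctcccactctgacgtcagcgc
Ldha, second start, at chr7:46846932-46847081, plus strand: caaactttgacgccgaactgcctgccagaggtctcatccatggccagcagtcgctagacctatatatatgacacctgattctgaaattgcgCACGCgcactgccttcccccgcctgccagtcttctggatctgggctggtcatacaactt
Ldhb at chr6:142507958-142508107, minus strand: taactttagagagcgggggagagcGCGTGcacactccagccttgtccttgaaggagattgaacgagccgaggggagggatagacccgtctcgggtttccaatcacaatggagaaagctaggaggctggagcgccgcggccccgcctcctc
Slc16a8 at chr15:79254749-79254898, minus strand: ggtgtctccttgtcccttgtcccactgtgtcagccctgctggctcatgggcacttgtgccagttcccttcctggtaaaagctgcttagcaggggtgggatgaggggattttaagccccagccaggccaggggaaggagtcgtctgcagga

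The stretch before the upstream Ldha start held 5 matches and that before its second start 1, those of Slc2a1 and Slc16a3 held 2 each, that of Ldhb held 1, and that of Slc16a8 held 0. RefSeq promoters of 300 bases (250 before the start and 50 after it) were found for 36 of the 39 symbols, not for Slc2a3, Bsg and Slc16a7, and numbered 56 because a gene can have several starts. At least 1 of the motifs lay in 39 of the 56 promoters (69.64%), against 43.77% of all 32851 mouse promoters of that length in the table. The share was 80% for the HIF-induced members (20 of 25) and 61.29% for the others (19 of 31). The printed stretches do not represent their groups. In the other group, the promoter of Slc16a1 held 3 ACGTG and 2 GCGTG and that of Pdk3 1 and 3. In the HIF-induced group, those of Gpi1 and Tpi1 held 0 of either. A match is a run of letters and not a measured binding site, and an absent match says only that those letters are not in the window. Promoters were not matched for base composition, and overlapping windows of the same gene, as for Eno1, were counted separately.

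The libraries held 14865868 to 17087621 reads on genes. Values are given as normalised reads, which are reads divided by 1 size factor per library, so that 1 read is worth 0.924 to 1.09 of them. The Emcn transcript followed the labels, at 93.3, 80.6 and 100.5 normalised reads in Emcn+/+ and 1.95, 1.04 and 4.62 in Emcn-/-. Emcn+/+ replicate 3 was the only library with reads typical of a female (17641 Xist reads against 1 to 5). Its summed reactive glial markers were the highest of all, at 12311 normalised reads. Emcn-/- replicate 3 followed at 9636, and the other 4 libraries lay at 5508 to 6166. Emcn+/+ replicate 3 and Emcn-/- replicate 3 carry the sample titles 188 and 186, the upper title series. The other 4 libraries carry titles from 144 to 148, the lower title series. The labels do not say what the title numbers stand for.

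No member passed with limma or edgeR, and 2, Gapdh and Bsg, passed with DESeq2. In the limma fit of the 16681 genes that passed a filter on low reads, 0 of the 39 members tested had an adjusted p under 0.05, against 0.00599% of all tested genes (1 gene, Emcn itself). The edgeR fit of the recovered reads also called 1 gene and 0 members. DESeq2 on the same reads called 2 of the 32 members to which it gave an adjusted p, both higher in Emcn-/-, against 0.203% of the genes it adjusted. At an unadjusted limma p under 0.05, 9 members were higher in Emcn-/- retinas (23.1% of members, beside 3.67% of all tested genes). Only 1 was lower (2.56% of members, beside 4.47% of all tested genes). Of the 39 members tested, 30 had a positive log2 fold change, beside 52.0% of all tested genes, and their median was 0.12 beside 0.01 for all genes. Together the members took 1.68%, 1.81% and 1.95% of all normalised reads in Emcn+/+ and 1.89%, 2.00% and 2.01% in Emcn-/-. Emcn+/+ replicate 3 lay above Emcn-/- replicate 1 in that share, so the genotypes overlapped.

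For 11 members every Emcn-/- library lay above every Emcn+/+ library, which held for 7.48% of all tested genes. They were the glucose transporter gene Slc2a1, the glycolytic genes Aldoc, Eno2 and Gapdh, the lactate dehydrogenase gene Ldhb, the lactate transport genes Bsg and Slc16a8, the kinase gene Pdk1, and the mitochondrial genes Dld, Pdhb and Mpc1. The 1 member with every Emcn-/- library below was the minor upstream Aldoa record (2.56% of members, beside 6.94% of all tested genes). Of these 11, 3 are in the HIF-induced group and 8 in the other group. In whole retina, fewer cells of a type and less RNA per cell cannot be told apart.

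**Figure D1:**
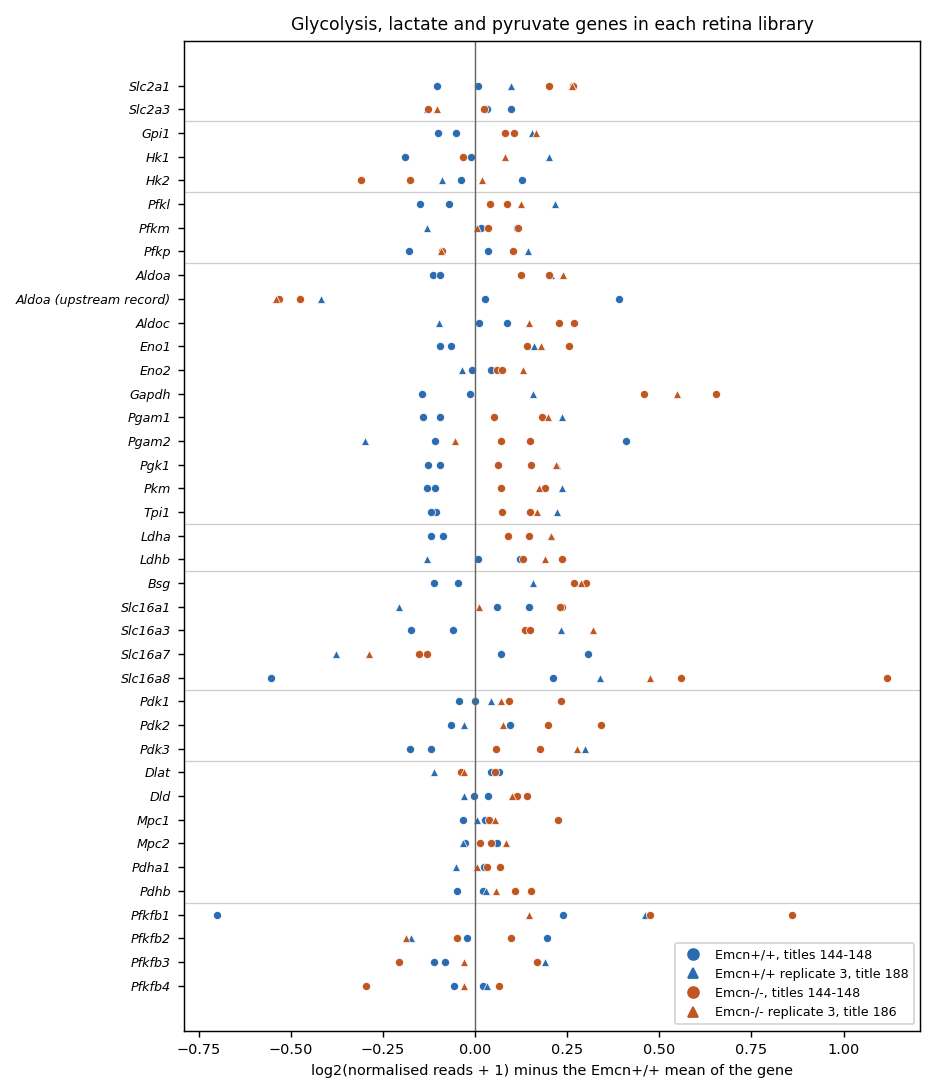
Each row is 1 of the 39 tested genes, ordered by role with thin lines between roles, and each point is 1 library, as log2(normalised reads + 1) minus the Emcn+/+ mean of the gene. Blue is Emcn+/+, orange is Emcn-/-, and triangles are the libraries of the upper title series; for 11 genes all 3 orange points lie to the right of the blue ones.

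Glucose enters through Slc2a1 and Slc2a3, which encode the carriers GLUT1 and GLUT3. Slc2a1, the carrier of photoreceptors, Müller glia, pigment epithelium and vessel walls, lies on chromosome 4 (119108711 to 119137983, plus strand, GRCm38). It had 4892, 4527 and 5205 normalised reads in Emcn+/+ and 5853, 5592 and 5840 in Emcn-/-. The Emcn-/- libraries all lay above the Emcn+/+ libraries. This gave a log2 fold change of 0.24 ± 0.06 (SE, taken after adding 1 to each value), which did not pass (limma adjusted p = 0.4004). Slc2a3, the main carrier of neurons, had 1711, 1638 and 1461 normalised reads in Emcn+/+ and 1628, 1466 and 1491 in Emcn-/-. Its genotypes overlapped and its difference was -0.07 (limma adjusted p = 0.821).

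The hexokinases, which trap glucose as glucose-6-phosphate, did not separate the genotypes. Hk2, the inducible form that photoreceptors use for aerobic glycolysis, had 3362, 3767 and 3243 normalised reads in Emcn+/+ and 3054, 2783 and 3498 in Emcn-/-. Its difference was -0.16 ± 0.09 (limma adjusted p = 0.682), and the Emcn-/- library with the highest value was the one from the upper title series. Hk1, the constitutive form, had 13397, 15182 and 17560 normalised reads in Emcn+/+ and 14951, 14950 and 16185 in Emcn-/-, all 3 within the Emcn+/+ range. Its difference was 0.01 ± 0.09, and its sign was negative with TMM scaling. Gpi1, whose enzyme converts glucose-6-phosphate to fructose-6-phosphate, had 11460.0, 11863 and 13677 in Emcn+/+ and 13006, 13225 and 13802 in Emcn-/-, and Emcn+/+ replicate 3 was the only control library within the Emcn-/- range (0.12 ± 0.07, limma adjusted p = 0.696).

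Phosphofructokinase commits sugar to glycolysis, and the bifunctional PFKFB enzymes make and remove its activator, fructose-2,6-bisphosphate. The 3 phosphofructokinase genes overlapped between genotypes. Pfkl (liver form) was at 6012, 6346 and 7749 against 6859, 7081 and 7263 normalised reads (0.08 ± 0.09). Pfkm (muscle form) was at 2539, 2373 and 2144 against 2545, 2406 and 2354 (0.05 ± 0.07), and Pfkp (platelet form) at 7211, 8368 and 9032 against 7676, 8780 and 7663 (-0.03 ± 0.09). Emcn+/+ replicate 3 was the highest library for Pfkl and Pfkp and the lowest for Pfkm. The PFKFB genes were no different: Pfkfb2 was at 2519, 2927 and 2264 against 2470, 2732 and 2243. Pfkfb3, whose enzyme strongly favours making the activator, was at 598, 611 and 737 against 726, 560.1 and 632. Pfkfb4 was at 188, 198 and 199.8 against 159, 204 and 191. Their differences of -0.05, -0.02 and -0.09 were each smaller than their SE, and the limma adjusted p of the 3 genes was between 0.872 and 0.970. Pfkfb1, the liver and muscle form, had 7.26 to 17.5 normalised reads in Emcn+/+ and 13.9 to 23.4 in Emcn-/-, with wide spread (0.49 ± 0.39, limma adjusted p = 0.753).

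In lower glycolysis, from aldolase to pyruvate kinase, values tended to be higher in Emcn-/-. All 10 of its symbols had a positive log2 fold change (median 0.14), and 3 of them (Aldoc, Eno2 and Gapdh) did not overlap between genotypes. With limma on all libraries none passed, while DESeq2 called Gapdh. Aldoc, the aldolase of brain and retina, had 6276, 5950 and 5517 normalised reads in Emcn+/+ and 7122, 6922 and 6533 in Emcn-/-. The lowest Emcn-/- library was still above the highest Emcn+/+ library (0.21 ± 0.06, limma adjusted p = 0.476). Aldoa, the widely expressed aldolase, had 30067, 30459 and 37542 in Emcn+/+ and 35466, 37395 and 38335 in Emcn-/-. Here Emcn+/+ replicate 3 lay among the Emcn-/- libraries (0.19 ± 0.09, limma adjusted p = 0.643).

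The second Aldoa record lies just upstream of the main gene on chromosome 7, at 126800790 to 126809108 against 126795234 to 126800751, both on the minus strand. It had 122, 158 and 89.5 normalised reads in Emcn+/+ and 82.8, 86.1 and 82.3 in Emcn-/-, so it went the other way from the main record. The Emcn+/+ values were widely spread, and replicate 3 stood close to the Emcn-/- libraries (-0.51 ± 0.20, limma adjusted p = 0.569). The libraries are not known to keep strand, and no source used here says how reads near the shared border were assigned.

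Gapdh, whose enzyme makes the first NADH of the pathway, had 637, 696 and 784 normalised reads in Emcn+/+ and 1106, 966 and 1029 in Emcn-/-. The gap between the groups was wider than the spread within either, and the log2 fold change of 0.55 ± 0.09 had the smallest p of all members (limma adjusted p = 0.305). Its level is uncertain. Per kilobase of exon, Gapdh reached only 3.32% to 5.19% of Tpi1 and 2.78% to 4.39% of Pgk1, the genes of its neighbours in the pathway, in the same libraries. Gapdh has many processed pseudogenes, and reads that match several places may have been lost or moved in counting; whether this set its level or its difference was not tested. The deposited table also lists near-copies of Ldha, Ldhb, Pgk1, Pgam1, Eno1 and Mpc1, and these 6 genes carry the same uncertainty.

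In the middle steps of this block, replicate 3 of the controls stood highest. Tpi1, which interconverts the triose phosphates, was at 12542, 12421 and 15747 normalised reads in Emcn+/+ and 14190, 14963 and 15161 in Emcn-/- (0.13 ± 0.09). Pgk1, which makes the first ATP of the pathway, was at 12256, 11996 and 15290 against 13668, 14562 and 15245.0 (0.14 ± 0.09). Pgam1, a phosphoglycerate mutase, was at 8893, 9180 and 11548 against 10165, 11123 and 11239 (0.14 ± 0.10). In each of the 3 genes, Emcn+/+ replicate 3 was the highest of the 6 libraries and the other Emcn+/+ libraries were the lowest. Pgam2, the muscle form, had 56.8 to 93.3 normalised reads in Emcn+/+ and 67.5 to 77.9 in Emcn-/-.

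Enolase and pyruvate kinase are the last steps. Eno1, the widely expressed enolase, had 37255, 37990 and 44416 normalised reads in Emcn+/+ and 43846, 47437 and 45056 in Emcn-/- (0.19 ± 0.08, limma adjusted p = 0.612). Eno2, the neuronal enolase, had 8993, 9310 and 8818 against 9414, 9503 and 9889, a narrow separation with no overlap (0.09 ± 0.05, limma adjusted p = 0.683). Pkm, which encodes the pyruvate kinase of most tissues, had 41246, 41891 and 53190 against 47400, 51435 and 50859 (0.14 ± 0.10, limma adjusted p = 0.729). For Eno1 and Pkm, Emcn+/+ replicate 3 again lay within or above the Emcn-/- range. Gene-level reads cannot separate the M1 and M2 splice forms of Pkm.

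Lactate dehydrogenase exists as subunits from Ldha, which favours lactate production, and Ldhb, which favours the return to pyruvate. Ldha (chromosome 7, 46841475 to 46855627, plus strand) had 21803, 22311 and 27342 normalised reads in Emcn+/+ and 25229, 26233 and 27344 in Emcn-/-. Emcn+/+ replicate 3 was level with the highest Emcn-/- library (0.15 ± 0.09, limma adjusted p = 0.694). Ldhb had 2395, 2212 and 2008 in Emcn+/+ and 2592, 2407 and 2507 in Emcn-/-, and the genotypes were separated by a small margin (0.19 ± 0.07, limma adjusted p = 0.561). Emcn+/+ replicate 3 had the most Ldha and the least Ldhb of the Emcn+/+ libraries.

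Lactate transport held 2 members without overlap, Bsg and Slc16a8. Bsg encodes basigin, the chaperone that carries MCT1, MCT3 and MCT4 to the membrane and that rods also use in a longer form. It had 11878, 11346 and 13680 normalised reads in Emcn+/+ and 14759, 15122 and 14970 in Emcn-/- (chromosome 10, 79704491 to 79711969, plus strand). The Emcn-/- libraries were tightly grouped above all Emcn+/+ libraries (0.29 ± 0.07, limma adjusted p = 0.415).

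Slc16a8 encodes MCT3, the lactate exporter on the choroidal side of the retinal pigment epithelium. It had 275, 161 and 300.3 normalised reads in Emcn+/+ and 350, 516 and 330 in Emcn-/-, the largest positive fold change of the members with all 6 libraries (0.72 ± 0.24, limma adjusted p = 0.522). It was 0.44 without Emcn+/+ replicate 2 and 0.52 without Emcn-/- replicate 2, in both cases below Gapdh (0.55 and 0.60). The retina samples contained pigment epithelium transcripts in unequal amounts. Summed over 9 markers of that tissue (Rpe65, Lrat, Rgr, Best1, Ttr, Tyrp1, Dct, Tyr and Rdh5), they came to 7673, 3693 and 6130 normalised reads in Emcn+/+ and 8707, 12148 and 11237 in Emcn-/-. All 8 tested markers had positive log2 fold changes (median 0.82), and none of the 9 was at 0. The library lowest in the marker sum, Emcn+/+ replicate 2, was also lowest in Slc16a8, and the library highest in the sum, Emcn-/- replicate 2, was highest in Slc16a8, but Emcn-/- replicate 3 combined a high sum with the lowest Slc16a8 value of its group. Single markers were split in Emcn-/- replicate 3. Rpe65 (694), Lrat (399) and Best1 (9.24) were there at their lowest of the Emcn-/- libraries. Tyrp1 (711), Dct (3165) and Tyr (353) were at their highest, and Rgr, Ttr and Rdh5 lay between. The part of pigment epithelium carried over with the retina in the Slc16a8 and Bsg values was not tested.

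The other transporters stayed within overlapping ranges. Slc16a3, the HIF-induced exporter MCT4, was at 1446, 1564 and 1914 normalised reads in Emcn+/+ and 1790, 1807 and 2035 in Emcn-/- (0.20 ± 0.10, limma adjusted p = 0.646). Slc16a1, the widely expressed MCT1, was at 4745, 4466 and 3710 against 5043, 5031 and 4316 (0.16 ± 0.10, limma adjusted p = 0.694). Slc16a7, the high-affinity neuronal carrier MCT2, was at 350, 297 and 217 against 258, 254 and 231 (-0.19 ± 0.16, limma adjusted p = 0.774). Within either genotype, the library of the upper title series had the highest Slc16a3 and the lowest Slc16a1 and Slc16a7.

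**Figure D2:**
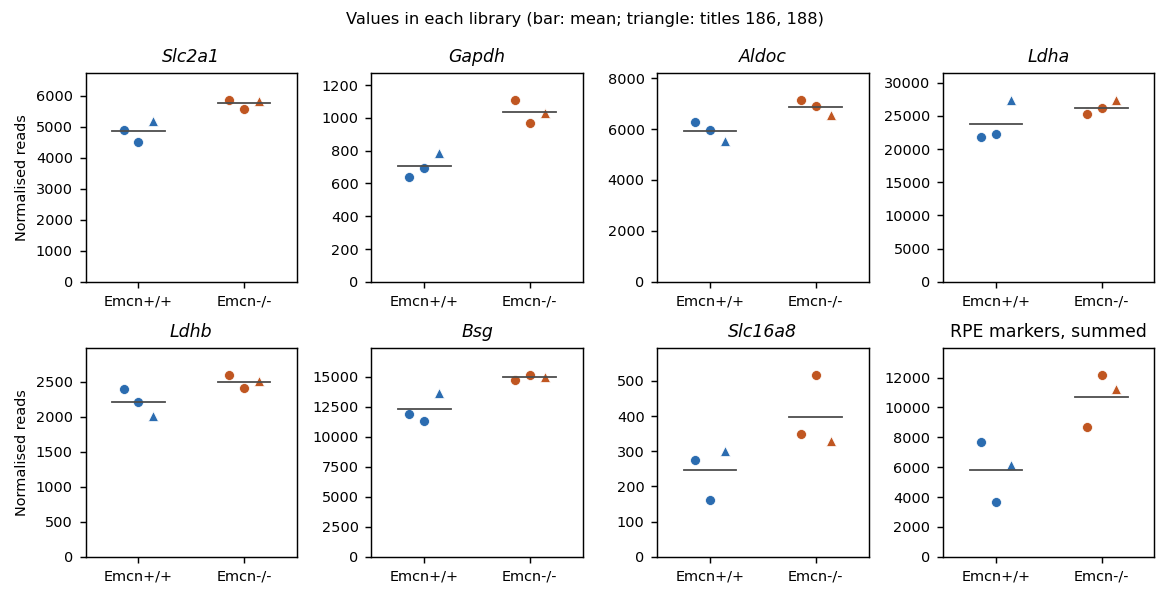
Normalised reads in each library for 7 members and for the summed pigment epithelium markers, on linear axes from 0, with bars at the group means, blue for Emcn+/+, orange for Emcn-/- and triangles for the upper title series. The genotypes do not overlap for Slc2a1, Gapdh, Aldoc, Ldhb, Bsg, Slc16a8 and the marker sum, whereas Ldha overlaps through the Emcn+/+ library at 27342.

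Pyruvate dehydrogenase kinases phosphorylate and silence the pyruvate dehydrogenase complex. Pdk1, the HIF-induced kinase, had 1176, 1210.5 and 1249 normalised reads in Emcn+/+ and 1292, 1423 and 1274 in Emcn-/-, separated by a small margin (0.13 ± 0.06, limma adjusted p = 0.630). Pdk2, the widely expressed kinase, had 1145, 1281 and 1174 against 1375, 1520 and 1263 and overlapped by a single pair of libraries (0.21 ± 0.08, limma adjusted p = 0.561). Pdk3 had 440, 458 and 612 against 518, 562 and 603 (0.17 ± 0.13, limma adjusted p = 0.737). Pdk4, the kinase of fasting and fat use, had 5.19 to 7.41 normalised reads in Emcn+/+ and 5.19 to 11.1 in Emcn-/-. It was the only member below the filter on low reads, and it was not tested.

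For the complex itself and the pyruvate carrier the differences were small, with 5 of 6 genes positive (median 0.08) and 3 without overlap, Dld, Pdhb and Mpc1. Dld, the dihydrolipoamide dehydrogenase subunit, had 1951, 1901 and 1865 normalised reads in Emcn+/+ and 2099, 2062 and 2042 in Emcn-/- (0.12 ± 0.05, limma adjusted p = 0.591). Pdhb, a subunit of the pyruvate dehydrogenase component, had 1746, 1833 and 1843 against 1949, 2007 and 1881 (0.11 ± 0.05, limma adjusted p = 0.643). Both were higher in all 3 Emcn-/- libraries by a small amount. Pdha1, the partner of Pdhb that the kinases phosphorylate, was at 0.04 ± 0.05, and Dlat, the acetyl-transferring core, at -0.00 ± 0.07. The carrier genes were at 0.11 ± 0.12 for Mpc1 and 0.05 ± 0.06 for Mpc2. The Mpc1 libraries were at 124, 130 and 128 against 149, 131 and 132, so its separation rested on about 1 read, and its near-copy Mpc1-ps had a higher level per kilobase of exon (613 ± 11.6) than Mpc1 (61.2 ± 1.29) in Emcn+/+.

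Levels can be compared between genes only per length, here as normalised reads per kilobase of exon in Emcn+/+ retinas (mean ± SD, n = 3). Aldoa (11230 ± 1445), Pkm (9087 ± 1343), Eno1 (7415 ± 732), Ldha (7196 ± 925) and Bsg (6781 ± 674) stood at the top. Exonic length is the union of all annotated exons, which lowers genes with long rare transcripts. Eno1, Ldha and Bsg lay within an SD of one another, so the order among them is not resolved. Pgk1 (5874 ± 816), Pgam1 (4982 ± 735) and Tpi1 (4929 ± 685) followed. Then came a step down to Eno2 (1921 ± 53.0), Gpi1 (1912 ± 183), Aldoc (1813 ± 117) and Hk1 (1803 ± 245), which again lay within their SDs. The bottom was held by Pfkfb4 (40.1 ± 1.36), Slc16a7 (24.3 ± 5.62), Pfkfb1 (3.28 ± 1.32) and Pdk4 (1.71 ± 0.35). The kinase genes of the complex were ordered Pdk2 (379 ± 22.6), Pdk3 (196 ± 36.9) and Pdk1 (156 ± 4.71).

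**Figure D3:**
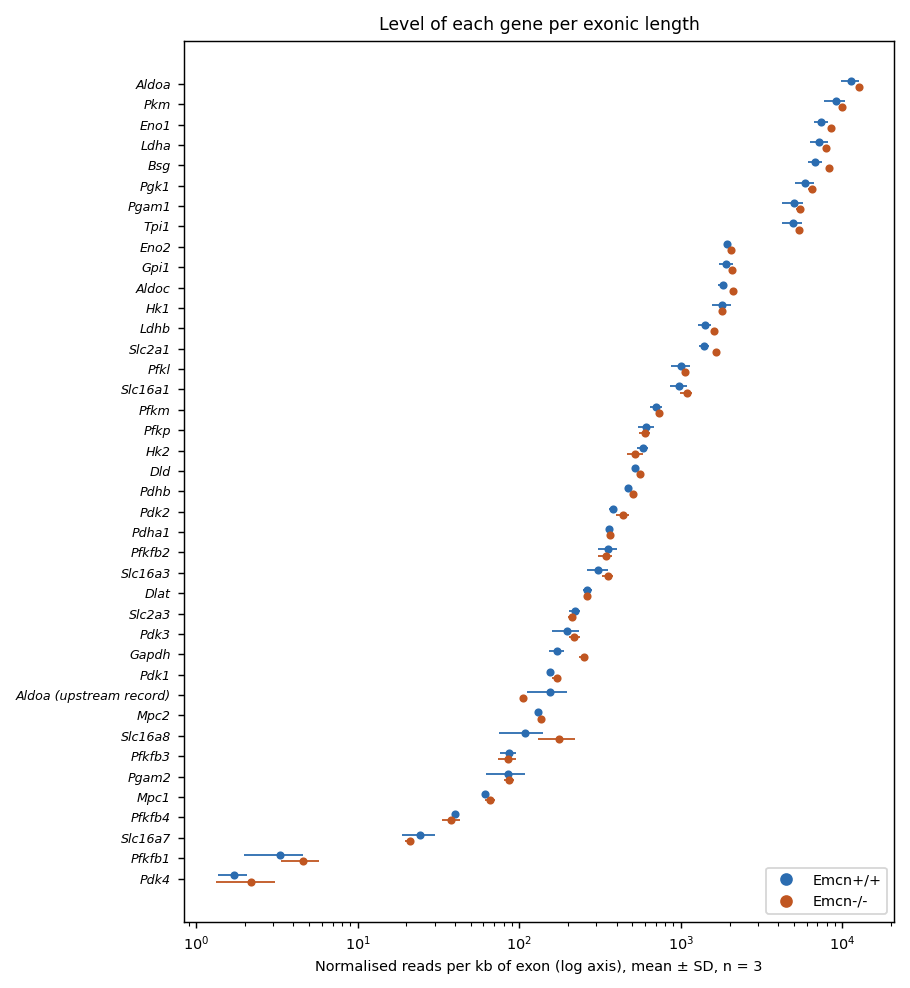
Level of each of the 40 records as normalised reads per kilobase of exon on a log axis, mean ± SD over 3 libraries, blue for Emcn+/+ and orange for Emcn-/-. Aldoa and Pkm lie at the top and Pdk4 at the bottom, and for most genes the blue and orange points lie close together.

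Isoform partners were compared as ratios within a library, in which the library factor cancels. Per kilobase of exon, Ldha exceeded Ldhb by 5.19 ± 1.13-fold in Emcn+/+ and 4.99 ± 0.32-fold in Emcn-/- (SD, n = 3). Aldoa exceeded Aldoc by 6.25 ± 1.21-fold and 6.07 ± 0.50-fold, and Eno1 exceeded Eno2 by 3.87 ± 0.47-fold and 4.14 ± 0.20-fold. The form from the HIF-induced group was thus the more abundant one at these 3 steps in both genotypes. The reverse held for hexokinase, where Hk2 was 0.326 ± 0.054 of Hk1 in Emcn+/+ and 0.289 ± 0.022 in Emcn-/-. It also held for the kinases, where Pdk1 was 0.412 ± 0.025 and 0.391 ± 0.016 of Pdk2, and for the transporters, where Slc16a3 was 0.325 ± 0.093 and 0.329 ± 0.055 of Slc16a1. Pfkfb3 (0.247 ± 0.058 and 0.250 ± 0.046) and Pfkfb4 (0.114 ± 0.016 and 0.111 ± 0.016) were likewise below Pfkfb2. Among the phosphofructokinases, Pfkl was 1.44 ± 0.33 and 1.46 ± 0.10 of Pfkm. Pfkp was 0.879 ± 0.171 and 0.824 ± 0.080 of Pfkm, with single libraries from 0.708 to 1.05.

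The difference in log2 ratio between genotypes was tested for 12 pairs with an exact permutation test, two-sided, in which 3 against 3 cannot go below p = 0.1. The ratio of Slc2a1 to Slc2a3 was 0.31 higher on the log2 scale in Emcn-/-, with no overlap (exact p = 0.1, the smallest possible, 0.6 after Benjamini-Hochberg adjustment over the 12 pairs). That log2 ratio stood at 1.51, 1.47 and 1.83 for the Emcn+/+ libraries against 1.85, 1.93 and 1.97 for Emcn-/-, and Emcn+/+ replicate 3 lay just below the Emcn-/- range. The ratio of Slc16a1 to Slc16a7 was 0.35 higher, from 3.76, 3.91 and 4.09 to 4.28, 4.30 and 4.22, with the same exact p of 0.1 and 0.6 adjusted. In the other 10 pairs the genotypes overlapped, and their exact p ranged from 0.2 to 1.0. These included Ldha to Ldhb (-0.04), Aldoa to Aldoc (-0.03), Eno1 to Eno2 (0.11), Hk2 to Hk1 (-0.16) and Pdk1 to Pdk2 (-0.07). All 10 of these pairs set a form from the HIF-induced group against one from the other group. Both forms of the Slc2a1 pair and neither of the Slc16a1 to Slc16a7 pair are in the HIF-induced group.

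**Figure D4:**
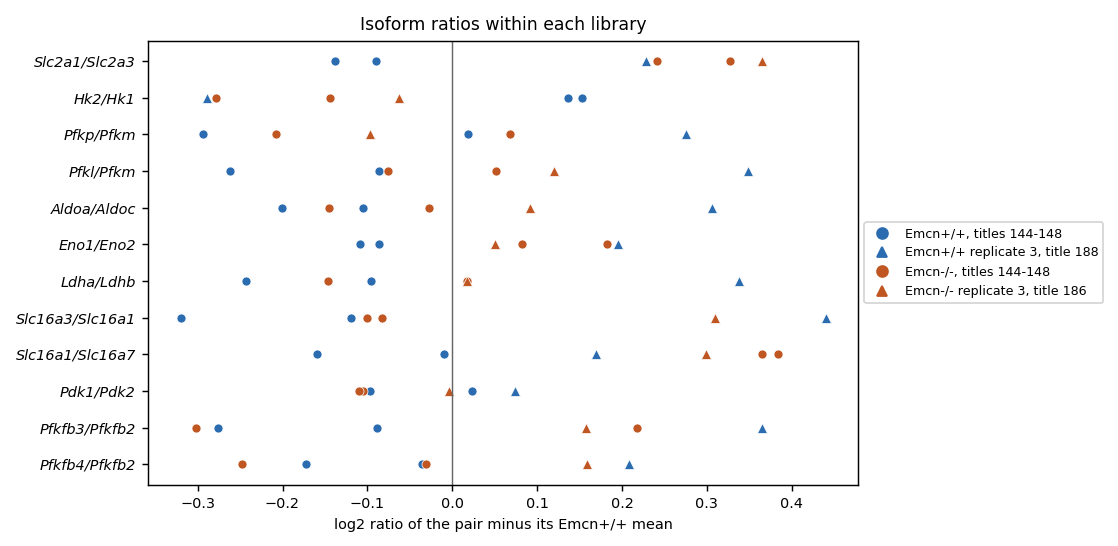
Log2 ratio of each of the 12 isoform pairs in each library minus the Emcn+/+ mean of the pair, blue for Emcn+/+, orange for Emcn-/- and triangles for the upper title series. The genotypes do not overlap for Slc2a1/Slc2a3 and Slc16a1/Slc16a7 and overlap in the other 10 rows, and the Emcn+/+ triangle lies at or near an end of many rows.

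The HIF-induced members and the others were set side by side, as a description without a test. Of the 18 HIF-induced members 13 had positive log2 fold changes (median 0.14), and of the 20 others tested 17 did (median 0.11). Over the libraries, the median deviation of the HIF-induced members from their Emcn+/+ means was -0.11, -0.07 and 0.18 in Emcn+/+ and 0.08, 0.15 and 0.17 in Emcn-/-. Emcn+/+ replicate 3 was therefore level with the highest Emcn-/- library. The other members gave 0.01, 0.02 and -0.03 for the Emcn+/+ libraries and 0.13, 0.11 and 0.08 for Emcn-/-, without overlap. Emcn+/+ replicate 3 was the highest control library for 16 of the 18 HIF-induced members and for 6 of the 20 others, and for 37.8% of all tested genes.

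Within the lower title series, with 2 libraries of each genotype, the median difference was 0.22 for the HIF-induced members (15 of 18 positive) and 0.11 for the others (16 of 20). Within the upper title series, with 1 library of each genotype and so no replicate, it was 0.01 for the HIF-induced members (10 of 18 positive) and 0.11 for the others (16 of 20). Hk2 turned from -0.29 in the lower series to 0.11 in the upper series and Pkm from 0.25 to -0.06, whereas Gapdh (0.63 and 0.39), Slc2a1 (0.28 and 0.17), Aldoc (0.20 and 0.24) and Bsg (0.36 and 0.13) were positive in both. Slc16a8 was at 1.01 in the lower series and 0.14 in the upper series. A limma fit with an interaction of genotype and title series called 23 genes (0.138% of those tested) and 0 members, whose lowest adjusted p was 0.742. At an unadjusted p under 0.05 it had 6 members (15.4% of members, beside 5.87% of all tested genes), namely Hk2, Tpi1, Pfkl, Pgam1, Pkm and Bsg. These comparisons within the title series were chosen after seeing the data, and series, sex and replicate 3 of Emcn+/+ cannot be fully told apart.

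**Figure D5:**
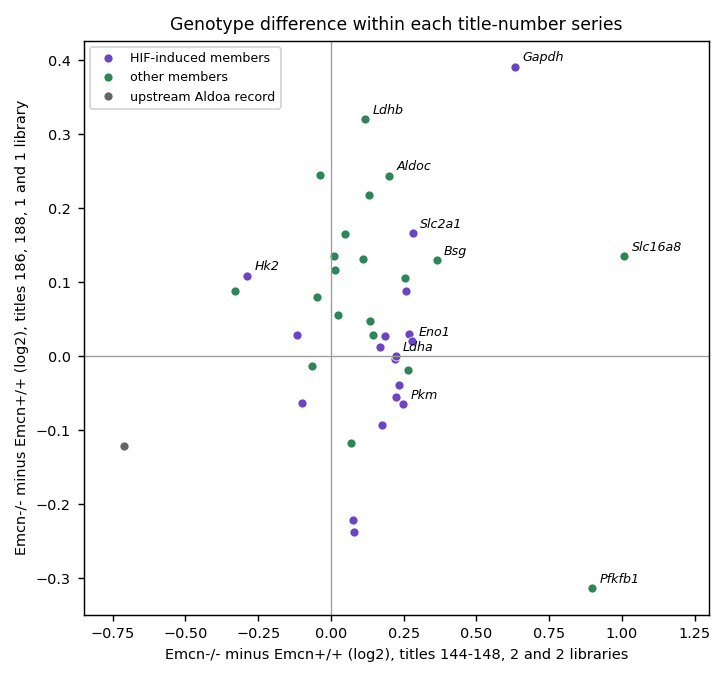
Each point is 1 of the 39 tested genes, with its log2 difference between genotypes in the lower title series (2 and 2 libraries) on the x axis and in the upper title series (1 and 1 library) on the y axis, purple for HIF-induced, green for other members and grey for the upstream Aldoa record. Most purple points lie right of 0 on the x axis (15 of 18) and around 0 on the y axis (10 of 18 positive), while Gapdh, Ldhb and Aldoc are positive on both axes.

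The calls depended on that library. Without Emcn+/+ replicate 3, limma called 37 genes higher in Emcn-/- (0.215% of those tested) and 3 of them were members. These were Gapdh (log2 fold change 0.63, limma adjusted p = 0.0164), Bsg (0.36, 0.0186) and Slc2a1 (0.29, 0.0485). The same fit called 110 genes lower (0.64%), and 0 of them were members. In that fit 22 members lay above both remaining Emcn+/+ libraries in all Emcn-/- libraries, against 18.7% of all tested genes, and 3 lay below, against 17.3%. Of the 22, 13 were in the HIF-induced group and 9 were not. The median of the HIF-induced members was 0.25 without that library, and 0.08 without Emcn+/+ replicate 1, beside 0.14 with all 6. DESeq2 on all 6 libraries called 13 genes higher (0.203% of the 6417 genes it adjusted) and 2 were members, Gapdh (0.55, DESeq2 adjusted p = 0.000276) and Bsg (0.28, 0.0321). Of the 59 genes it called lower (0.919%), 0 were members. It gave no adjusted p for 7 of the tested members, Slc16a8 among them. Emcn itself, at a DESeq2 log2 fold change of -5.14, also got no adjusted p, so it was not among the DESeq2 calls. Across the alternative limma fits the adjusted p of Gapdh lay between 0.0164 and 0.909, that of Bsg between 0.0186 and 0.940 and that of Slc2a1 between 0.0485 and 0.940. Without Emcn+/+ replicate 3, only Emcn-/- holds a library of the upper title series, so series and genotype are partly mixed. With all 6 libraries and title series as a covariate, limma called 0 members. The limma adjusted p was then 0.0854 for Gapdh, 0.133 for Bsg and 0.136 for Slc2a1.

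Photoreceptors carry much of the glycolytic RNA of the retina. The summed reads of 9 rod markers (Gnat1, Pde6a, Pde6b, Cnga1, Gngt1, Nrl, Nr2e3, Sag and Rom1) ranged from 322313 to 349735 normalised reads in Emcn+/+ and from 349265 to 368869.7 in Emcn-/-. Emcn+/+ replicate 3 lay just above Emcn-/- replicate 3 in that sum, and the other Emcn-/- libraries lay above all Emcn+/+ libraries. All 9 rod markers had a positive log2 fold change, their median being 0.10, beside 0.12 for the members, and 0 of them passed the limma test (1 at an unadjusted p under 0.05). Of 8 cone markers 6 had a positive log2 fold change (median 0.13), 3 of them at an unadjusted p under 0.05, and their sum ranged from 18877 to 20160 normalised reads in Emcn+/+ and from 20314 to 22198 in Emcn-/-, without overlap. Müller glial markers, 8 in number, ranged from 47442 to 63238 in Emcn+/+ and 55741 to 67684 in Emcn-/-. Of these, 5 were positive (median 0.15 over the 8), and 2 were higher at an unadjusted limma p under 0.05. Of 10 endothelial markers 1 was positive, with a median of -0.24 and a range of 7285 to 7855 against 4981 to 7367. For the markers as a set, that difference lay mostly in Emcn-/- replicate 2, where their median deviation from their Emcn+/+ means was -0.73. Emcn-/- replicates 1 and 3 stood at 0.08 and 0.11. At an unadjusted limma p under 0.05, 2 endothelial markers, Kdr and Vwf, were lower. Kdr was lower in every Emcn-/- library, at 3164, 3030 and 3025 normalised reads in Emcn+/+ against 2743, 2250 and 2753. The part of these cell types in the differences of the members was not tested.

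Other genes around the pathway were read from 6 lists, and 0 of them passed in either direction with limma, edgeR or DESeq2. DESeq2 gave an adjusted p to only some of them, from 18 of 20 tricarboxylic acid cycle genes to 4 of 20 minor isoforms of glycolysis. Car12, Suclg2 and Slc2a12, named below, were not among those adjusted. HIF targets outside glycolysis were positive for 16 of 21 tested genes, with a median of 0.09, and 4 were higher and 0 lower at an unadjusted limma p under 0.05. The 2 with the smallest p were Car12, a membrane carbonic anhydrase (0.89 ± 0.22, limma adjusted p = 0.4004), and Bnip3l, a mitophagy receptor (0.23 ± 0.07, 0.504). Car12 had 193, 112 and 156 normalised reads in Emcn+/+ and 266, 360 and 229 in Emcn-/-. Like Slc16a8 and the pigment epithelium marker sum, it was lowest in Emcn+/+ replicate 2 and highest in Emcn-/- replicate 2. The part of pigment epithelium in the Car12 values was not tested. Tricarboxylic acid cycle genes were positive for 17 of 20, with a median of 0.09 and 7 without overlap, all higher; 3 were higher and 0 lower at an unadjusted limma p under 0.05. They were led by the malate dehydrogenase gene Mdh2 (3265 ± 46.6 against 3699 ± 27.3 normalised reads, 0.18 ± 0.05, limma adjusted p = 0.4004) and the succinyl-CoA ligase gene Suclg2 (0.52 ± 0.17, 0.522). Like the members, both lists lay slightly above the 0.01 of all genes. For the HIF targets, the median deviation of Emcn+/+ replicate 3 from the Emcn+/+ means was 0.16, within the Emcn-/- range of 0.06 to 0.17. Their median difference was 0.11 in the lower title series and -0.04 in the upper (10 of 21 positive). That of the tricarboxylic acid cycle genes was 0.09 and 0.07.

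The remaining lists were near the level of all genes, and at an unadjusted limma p under 0.05 they held 3 higher genes, all among the minor isoforms, and 0 lower ones. Minor isoforms and side enzymes of glycolysis were positive for 10 of 20 (median -0.01), led by the phosphoglucomutase gene Pgm1 (0.17 ± 0.05) and the glucose transporter gene Slc2a12 (0.74 ± 0.27). Partners of pyruvate dehydrogenase and other pyruvate users were positive for 3 of 11 (median -0.02), led by the malic enzyme gene Me1 (0.10 ± 0.05) and Pdhx, the anchor of the dihydrolipoamide dehydrogenase subunit (0.13 ± 0.07). Pentose phosphate genes were positive for 6 of 9 (median 0.05), with Pgd at 0.12 ± 0.06 and Rpia at -0.18 ± 0.11. Glycogen genes were positive for 5 of 10 (median -0.01), with the phosphorylase kinase gene Phka1 at -0.21 ± 0.10 and the glycogenin gene Gyg at 0.15 ± 0.09.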

How the data were processed

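Per the labels' protocols, libraries were made from 1.3 µg of RNA per retina sample by poly-T selection and random priming. The protocol text covers both stranded and unstranded kits, so strand is not known. The build was GRCm38, per the submitters' processing notes; no source used here gives the aligner, counter or annotation. The authors deposited a read signal per gene that the values show to be reads divided by 1 size factor per library, and 100% of values gave whole reads within 0.001 of a read. All 6 value columns were used. Counting error alone sets the limit that 0 reads allow (3 reads), 2.77 to 3.28 normalised reads.

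Genotype was tested without covariates in R 4.3.3 by limma 3.58.1 on log2(signal + 1), with trended variances, over the 16681 genes that edgeR's filterByExpr kept (minimum count 10). P-values were adjusted by Benjamini-Hochberg and called under 0.05. Fold changes on this scale understate low genes. edgeR 4.0.16 and DESeq2 1.42.0 on the recovered reads were alternatives, as were TMM and upper-quartile scaling, no filter, pseudocounts of 5 and 0.5, removal of a loess trend on exonic length, title series as a covariate and each library left out. The scripts were tested on simulated data. Ratios were tested with scipy 1.17.1. Lengths and positions came from GENCODE M21 (GRCm38), and all 40 records had a length. Replicates were numbered in accession order and are not paired. No 2 libraries were alike within sampling noise (at least 23.07% of genes differed in each pair).

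Members, lists and the naming rule were chosen with earlier results of these data known. Named with values in every library were genes of the isoform pairs, Gapdh, Pkm, Slc16a8, Bsg, Pdk3, Pdk4, Mpc1 and 6 more members of smallest p. Of each further list the 2 genes of smallest p were named with their fold change. Tpi1 was also given in this way, chosen after its values were seen. Marker lists of microglia, red cells and skeletal muscle were also summed, at 1578 to 2389 against 1741 to 1947, 592 to 2276 against 722 to 2352, and 68.6 to 95.4 against 67.2 to 100.7 normalised reads. One gene of the planned rod list is not reported here.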

Additional observations from a re-analysis of the deposited data

How the results depend on the processing

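Of the results on counts and medians, 66 values were labelled as kept under the 15 alternatives and 9 as moved. A count was kept if it equalled the main count or lay within a set ratio of it. A median was kept if it shifted by less than its spread between libraries. For the HIF-induced members that spread was wide (0.1132), so medians from 0.0787 to 0.2469 were kept beside 0.1379. The number of genes called was 72 with DESeq2 and 0 after removing the length trend, and ranged from 0 to 147 with a library left out. The number of members called was 2 with DESeq2 and ranged from 0 to 3 with a library left out, with 3 without Emcn+/+ replicate 3. With a library left out, the median of the members ranged from 0.0833 (without Emcn+/+ replicate 1) to 0.1213. Small differences changed sign, and the cause was not tested. Hk1 was at -0.0090 with edgeR, -0.0016 with DESeq2 and -0.0013 with TMM scaling. Removing the length trend gave 0.0768 for Pfkp and 0.0085 for Pfkfb3. With a library left out, Hk1 ranged from -0.0890 to 0.1062, Pfkm from -0.0123 to 0.1097, Pfkp from -0.1159 to 0.0465, Pfkfb2 from -0.1344 to 0.0509, Pfkfb3 from -0.1181 to 0.0729 and Pfkfb4 from -0.1631 to 0.0182. No paired analysis was possible because the labels give the samples no replicate numbers that the genotypes share. At 3 against 3 the ratio tests cannot pass 0.05 whatever the values. Depth limited Pdk4 and Pfkfb1, with at most 23.4 normalised reads in a library.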
